A study of Mus musculus with 16 samples.

Results

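The genes of the proton pump and the digestive enzymes of the lysosome were followed in the somatodendritic and axonal compartments of +/+ and Hnrnpr-/- motoneurons. The members were all protein-coding genes whose symbols name a subunit or accessory protein of the vacuolar H+-ATPase (V-ATPase), a cathepsin, a chain of beta-hexosaminidase, a LAMP protein, Npc1, Npc2 or prosaposin. They numbered 53 of the 46320 genes in the count table and were divided into 26 V-ATPase members, 20 lysosomal enzymes and 7 other lysosomal proteins. The symbol rule also took Atp6v1fnb, which is named only as a neighbour of Atp6v1f and is not a pump subunit.

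Motoneurons were enriched from lumbar spinal cords of mouse embryos on day 13 by panning for the p75NTR receptor and grown in microfluidic chambers, where axons grow through channels into a compartment of their own. CNTF was given in both compartments and BDNF on the axonal side only. Each of the 4 groups, +/+ somatodendritic, Hnrnpr-/- somatodendritic, +/+ axonal and Hnrnpr-/- axonal, comprised 4 libraries. The Hnrnpr-/- embryos lacked the first exons of Hnrnpr in all cells after a CRISPR/Cas9 deletion, and the line had been backcrossed to C57Bl/6.

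The V-ATPase pumps protons into lysosomes, endosomes and synaptic vesicles. Its V1 sector hydrolyses ATP in the cytosol, its V0 sector conducts protons through the membrane, and several subunits exist as isoforms that differ between cell types and membranes. Cathepsins are proteases that work best in the acid lumen, and most newly made hydrolases are carried there by mannose 6-phosphate receptors. In neurons, most acidic, degradative lysosomes lie near the cell body, while endosomes and autophagosomes formed along the axon acidify on their way back to it.

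Many lysosomal genes carry the E-box CACGTG near their start site, a sequence read by the transcription factor TFEB and its relatives, so the promoters of the members are shown first. RefSeq promoter windows of 300 bases, 250 before and 50 after the start site on GRCm38.p6, were matched to 40 of the 53 members. CACGTG was present in 9 of these 40 genes, or 22.5%, against 8.09% of all 27025 genes with a window. The longer form TCACGTGA was present in 5 of the 40 (12.5%) against 1.12% of all genes, and the exact palindrome of the CLEAR element, which extends it by a base on each side, in 0 of the 40 against 0.370%. These motifs read the same on both strands, and each shorter one lies within the longer one. The lines below give the E-box, in capitals, with its flanking bases in V-ATPase, enzyme and membrane protein genes that results below turn on, each on the strand of its gene. For Ctsd and Lamp1, which hold 2 and 4 sites, the site nearest to the start is shown.
Atp6v0e (chr17:26676389-26676414, plus strand): gcgcgccgatCACGTGagcctctgtt
Atp6v0d1 (chr8:105566052-105566077, minus strand): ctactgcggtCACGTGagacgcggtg
Atp6v1a (chr16:44139375-44139400, minus strand): ttttttaaatCACGTGataggcttaa
Ctsa, upstream site (chr2:164833751-164833776, plus strand): agcaaactgtCACGTGatgcagatgc
Ctsa, downstream site (chr2:164833768-164833793, plus strand): tgcagatgctCACGTGaccagagcta
Ctsd (chr7:142387910-142387935, minus strand): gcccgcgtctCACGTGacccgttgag
Ctsl (chr13:64370741-64370766, minus strand): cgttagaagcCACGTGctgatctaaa
Lamp1 (chr8:13159136-13159161, plus strand): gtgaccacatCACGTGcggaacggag
Of the 9 members that carried it, 5 were called higher in +/+ axons (Atp6v0e, Ctsa, Ctsd, Ctsl and Lamp1), 2 were called lower (Atp6v0d1 and Atp6v1a) and 2 were not called (Atp6v0b and Ctsf), by the test described below, where 30.1% of all genes were called higher and 27.4% lower.

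The libraries held 22024923 to 34864151 counts. The targeted gene went with the labels: Hnrnpr had 4574 to 5913 counts in the +/+ somatodendritic and 3922 to 15608 in the +/+ axonal libraries, against 13 to 27 and 18 to 38 counts in the Hnrnpr-/- libraries of these compartments. Of 10 motoneuron markers, 7 averaged over 1 CPM in +/+ somatodendritic libraries, among them Ret at 92.5 ± 9.68 CPM and Nefh at 68.4 ± 24.6 CPM (SD, n = 4). Mnx1 was at 0 in 3 of the 4 groups, and Chat, the enzyme of acetylcholine synthesis, averaged 0.899 ± 0.291 CPM in +/+ somatodendritic libraries. Markers of other cells were present in every group. The summed level of 10 markers of astrocytes or radial glia was 1463 to 2251 CPM in +/+ somatodendritic and 2678 to 5827 CPM in +/+ axonal libraries, with 5 of the 10 called higher in axons. In the same +/+ groups, the sum of 10 Schwann or oligodendroglial markers was 208 to 889 and 266 to 1268 CPM, with 1 called higher. In Hnrnpr-/- somatodendritic and axonal libraries the astrocyte or radial glial sum was 1691 to 2773 and 2487 to 4732 CPM, with 3 called higher, and the Schwann or oligodendroglial sum 278 to 1229 and 310 to 1827 CPM, with 1 called higher. That of the motoneuron markers was 139 to 221 and 13.5 to 48.5 CPM, with 5 called lower, and 141 to 260 and 6.30 to 126 CPM in the Hnrnpr-/- libraries of these compartments. That of 12 fibroblast or meningeal markers was 151 to 603 CPM in +/+ somatodendritic and 259 to 2747 CPM in +/+ axonal libraries, with 4 of the 12 called higher, and 192 to 1497 CPM and 529 to 2685 CPM in the Hnrnpr-/- libraries, with 2 called higher. Beside these counts, 30.1% of all genes were called higher and 27.4% lower in +/+ axons, and 27.5% and 26.8% in Hnrnpr-/- axons. For 14 microglial markers, single libraries were the highest of their group. Of the Hnrnpr-/- libraries these were both numbered 4, with 207 CPM in the somatodendritic library, against 17.2 to 87.4 CPM in the other 3, and 699 CPM in the axonal library, against 20.5 to 72.8 CPM in the other 3. In +/+ motoneurons the sum was 20.2 to 70.3 CPM in somatodendritic libraries, and axonal library 1 held 219 CPM against 20.0 to 88.8 CPM in the other 3. CPM are counts scaled to a common library size with TMM factors. In such bulk samples, a smaller number of cells of a type cannot be told apart from less RNA per cell.

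On a scale that divides counts by transcript length within each library (TPM), prosaposin was highest of the members in cell bodies, and cathepsin D and LAMP1 were highest in axons, by their means. In +/+ somatodendritic libraries the highest levels were those of Psap, the precursor of the saposins that help degrade sphingolipids, at 1312 ± 63.2 TPM (SD, n = 4), of Atp6v0c, the proteolipid of the V0 ring, at 1015 ± 86.5 TPM, and of Atp6v0e2, a small V0 subunit, at 943 ± 75.8 TPM. Ctsd, the aspartic protease cathepsin D, at 894 ± 131 TPM, and Atp6v1b2, the nucleotide-binding B subunit of V1, at 833 ± 67.8 TPM, came next. Psap was above the other 4 in each library, whereas the ranges of those 4 overlapped in part. In +/+ axonal libraries Ctsd was first at 1701 ± 664 TPM and Lamp1, an abundant glycoprotein of the lysosomal membrane, next at 1102 ± 315 TPM, and the ranges of this pair overlapped. Atp6v0c followed at 676 ± 83.5 TPM, Psap at 651 ± 132 TPM and Atp6v0e2 at 457 ± 103 TPM. In Hnrnpr-/- somatodendritic libraries Psap was first at 1326 ± 57.1 TPM, and Ctsd followed at 1244 ± 637 TPM, with 2165 TPM in library 4 against 750.3 to 1160 TPM in the other 3, before Atp6v0e2, Atp6v0c and Atp6v1b2. The first 5 of Hnrnpr-/- axons were Ctsd, Lamp1, Psap, Atp6v0c and Ctsb, the cysteine protease cathepsin B. The mean of Ctsb there, 517 ± 418 TPM, rested on the axonal library numbered 4, which held 1132 TPM against 199 to 374 TPM in the other 3.

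To ask how the members are distributed between the compartments, axonal and somatodendritic libraries of +/+ motoneurons were compared with the quasi-likelihood test of edgeR, in which a gene was called at a Benjamini-Hochberg adjusted p under 0.05 over the 19964 genes tested. After the filter on low counts 41 members were tested, namely 21 of the V-ATPase, 14 enzymes and 6 other lysosomal proteins. The pump and the enzymes differed in their counts. Of the 21 V-ATPase members, 3 were called higher and 9 lower in axons, with a median log2 fold change of -0.42. Of the 14 enzymes, 7 were called higher and 0 lower, with a median of 1.28. Of the 6 others, 3 were called higher and 2 lower, with a median of 0.50. Over all genes tested, 30.1% were called higher, 27.4% lower and 57.5% in either direction, and the median was 0.07. The ranges of the 4 axonal and 4 somatodendritic libraries did not overlap for 9 of the 14 enzymes, all with higher axonal values, and for 13 of the 21 V-ATPase members, 3 with higher and 10 with lower axonal values, against 24.8% of all genes higher and 27.6% lower. The difference between the classes was not tested, since the members were chosen with earlier results known. All 24 members called moved in their direction in 4 of 4 pairs of same-numbered axonal and somatodendritic libraries. The calls came from these same libraries, so the pairs are not separate support.

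**Figure D1:**
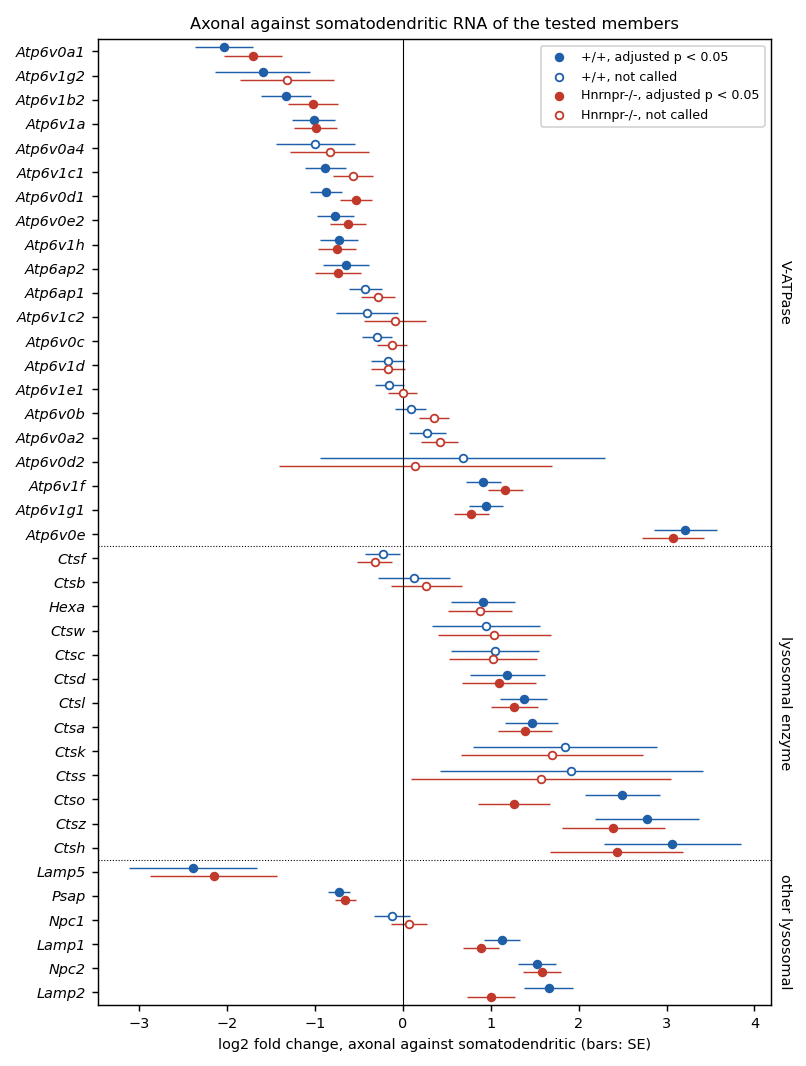
Log2 fold change of axonal against somatodendritic libraries for 40 of the members tested, with the standard error as bars, in +/+ (blue) and Hnrnpr-/- motoneurons (red), 4 libraries per group. Filled points are called at an adjusted p under 0.05. V-ATPase members lie on both sides of 0, whereas 12 of the 13 enzymes plotted lie above 0 in both genotypes.

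Within the V0 sector, the isoforms of a subunit parted between axonal and somatodendritic libraries. Atp6v0e, which encodes subunit e1 (chr17:26895370-26918621 on GRCm39, as for all gene positions below), was at 16.6, 12.3, 15.9 and 11.03 CPM in the 4 +/+ somatodendritic libraries and at 110, 83.1, 215 and 111 CPM in the axonal ones. Every axonal library was thus several fold above every somatodendritic one, and the log2 fold change of 3.21 ± 0.35 (SE; adjusted p = 2.53e-05) was the highest of all members tested. Its isoform Atp6v0e2 went the other way, with 545, 555, 537 and 636 CPM in somatodendritic and 397, 323, 284 and 332 CPM in axonal libraries. The groups did not overlap, and the log2 fold change was -0.77 ± 0.21 (adjusted p = 0.00576). Together they set the share of e1 in the TPM of subunit e at 5.41 ± 1.30% (SD, n = 4) in +/+ somatodendritic and 45.8 ± 12.1% in +/+ axonal libraries.

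Subunit a anchors the pump in its membrane and directs it to an organelle, and a1 is the isoform known from synaptic vesicles. Atp6v0a1 (chr11:100899262-100954545) held 718, 814, 706 and 772 CPM in +/+ somatodendritic libraries and 209, 180, 103.5 and 242 CPM in axonal ones. This was the most negative change of a V-ATPase member, at -2.03 ± 0.33 (adjusted p = 0.000207), with groups far apart. Atp6v0a2, the isoform known from the Golgi and endosomes, was at 66.1 to 84.8 CPM and 56.2 to 120 CPM in these groups, which overlapped (log2 fold change 0.28 ± 0.21, adjusted p = 0.259). Tcirg1 encodes a3, the isoform of osteoclasts and of secretory lysosomes, and lies outside the symbol rule. It was called higher in axons, at 26.9 ± 4.41 against 8.73 ± 2.92 CPM (SD, n = 4; log2 fold change 1.62 ± 0.30, adjusted p = 0.000505). Atp6v0a4, known from kidney, was at 1.12 to 1.97 CPM in somatodendritic and 0.545 to 1.08 CPM in axonal libraries and was not called (adjusted p = 0.0702). In TPM, a1 made up 88.3 ± 1.47% of subunit a in somatodendritic and 55.5 ± 9.96% in axonal +/+ libraries, a2 9.85 ± 0.994% and 31.3 ± 7.31%, and a3 1.54 ± 0.561% and 12.7 ± 3.83%.

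The remaining V0 members changed less than Atp6v0e and Atp6v0a1. Atp6v0d1, the subunit that couples the rotor to the ring, held 244, 269, 258 and 325 CPM in somatodendritic and 173, 134, 124 and 169 CPM in axonal +/+ libraries. It was called lower at -0.87 ± 0.18 (adjusted p = 0.00118), with no overlap. Its isoform Atp6v0d2, known from osteoclasts and macrophages, was at 0.456 to 0.664 CPM in somatodendritic and at 0 to 2.65 CPM in axonal libraries, under 1% of subunit d in TPM in every +/+ library. The proteolipids that line the proton path were not called, with log2 fold changes of -0.30 ± 0.17 for Atp6v0c and 0.09 ± 0.17 for Atp6v0b. The processed pseudogene Atp6v0c-ps2 is identical to Atp6v0c in 99.7% of 387 bases and held a mean of 7203 counts against 12619 for Atp6v0c, so the level of Atp6v0c is uncertain.

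In the V1 sector, the catalytic core was lower in axons and a pair of small stalk subunits was higher. Atp6v1b2 (chr8:69541388-69566370) held 687, 731, 743 and 842 CPM in somatodendritic and 412, 268, 199 and 316 CPM in axonal +/+ libraries, and was called lower at -1.33 ± 0.29 (adjusted p = 0.00135). Atp6v1a, the catalytic A subunit, held 505, 588, 564 and 563 CPM against 319, 304, 170 and 310 CPM (-1.01 ± 0.24 on the log2 scale, adjusted p = 0.00289). In both, each axonal library was below each somatodendritic one. Atp6v1c1 (-0.88 ± 0.23) and Atp6v1h (-0.73 ± 0.22), which link and regulate the contact of V1 with V0, were called lower too. Subunit G, a part of the peripheral stalks, parted by isoform. Atp6v1g1 held 82.8, 95.7, 117 and 118 CPM in somatodendritic and 167, 248, 206 and 175 CPM in axonal libraries, and was called higher at 0.94 ± 0.20 (adjusted p = 0.00109). Atp6v1g2, the isoform enriched in neurons, held 172, 208, 187 and 265 CPM against 80.0, 90.6, 24.4 and 80.8 CPM, and was called lower at -1.59 ± 0.54 (adjusted p = 0.0207). This call was lost when +/+ somatodendritic library 4 (adjusted p = 0.0563) or +/+ axonal library 3 (adjusted p = 0.0628) was left out. Atp6v1g1 made up 46.3 ± 3.84% of the TPM of subunit G in somatodendritic and 83.3 ± 7.08% in axonal libraries.

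Atp6v1f, a subunit of the central rotor, held 54.9, 43.8, 45.8 and 67.3 CPM in somatodendritic and 97.6, 95.7, 115 and 91.8 CPM in axonal +/+ libraries. It was called higher at 0.92 ± 0.20 (adjusted p = 0.00145), without overlap. Atp6v1d, also of the rotor, and Atp6v1e1, of the stalks, were not called, at -0.17 ± 0.19 and -0.15 ± 0.16. Isoforms B2, C1 and E1 made up at least 99.2% of the TPM of their subunits in every library of both genotypes, and Atp6v1c2, the minor isoform with the most reads, reached 1.55 CPM at most and was not called. Atp6v1g1 and Atp6v1f have processed pseudogenes with near-identical stretches, of which Gm13453, related to Atp6v1g1, held the most counts, with a mean of 769 against 4350. With the counts of such pseudogenes added, an alternative chosen after seeing the data, the calls of Atp6v1g1, Atp6v1f and Atp6v0c did not change. Of the accessory proteins, Atp6ap2, the prorenin receptor, was at 289 to 360 CPM in somatodendritic and 131 to 297 CPM in axonal +/+ libraries, which overlapped. It was called lower at -0.65 ± 0.26 (adjusted p = 0.0426), a call lost in 16 of 28 alternatives (adjusted p up to 0.158, without +/+ axonal library 3), and Atp6ap1, at -0.42 ± 0.19, was not called.

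**Figure D2:**
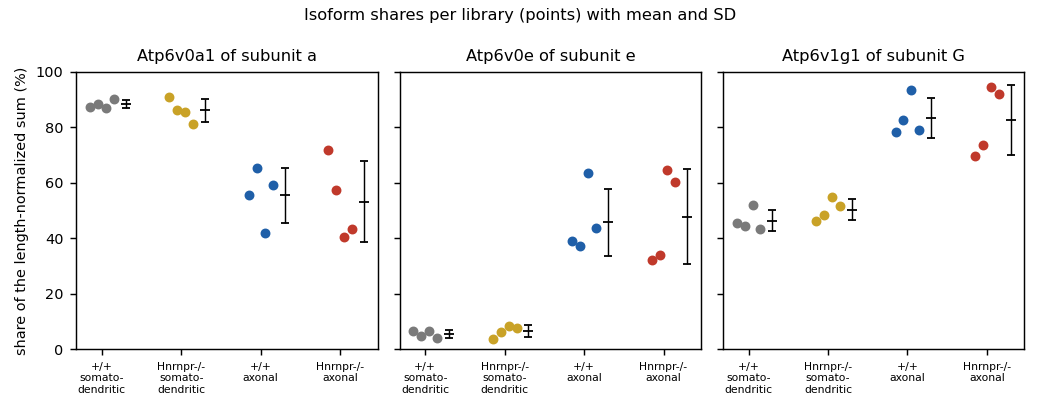
Share of 1 isoform in the summed TPM of its V-ATPase subunit, in percent, for Atp6v0a1 in subunit a, Atp6v0e in subunit e and Atp6v1g1 in subunit G; points are libraries, and bars give the mean and SD of the 4 libraries of a group. In each panel, the axonal libraries of both genotypes lie apart from the somatodendritic ones.

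The cathepsins called in +/+ motoneurons all had higher values in axons. Ctsh, an aminopeptidase among the cysteine cathepsins (chr9:89936320-89958148), held 4.89, 1.58, 4.97 and 2.91 CPM in somatodendritic and 26.7, 8.46, 16.3 and 68.9 CPM in axonal libraries. The groups did not overlap although the axonal libraries differed widely among themselves, and the log2 fold change was 3.06 ± 0.78 (adjusted p = 0.00397). Ctsz, a carboxypeptidase (chr2:174269287-174280832), held 25.5, 16.1, 28.7 and 13.7 CPM against 154, 70.4, 155 and 198 CPM, a change of 2.78 ± 0.59 (adjusted p = 0.00127). Ctso, a little-studied cysteine cathepsin (chr3:81839908-81864032), held 20.8, 16.2, 17.6 and 15.6 CPM against 61.4, 207, 42.5 and 85.4 CPM, a change of 2.498 ± 0.43 (adjusted p = 0.000287). In all 3 genes the lowest axonal library was above the highest somatodendritic one.

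The cathepsins with higher levels changed less. Ctsa, the serine carboxypeptidase that also protects beta-galactosidase and neuraminidase, rose by 1.47 ± 0.30 on the log2 scale, and Ctsl, a cysteine endopeptidase, by 1.38 ± 0.27. For both, every axonal library was above every somatodendritic one. Ctsd held 623, 519, 640.5 and 468 CPM in somatodendritic and 1579, 813, 1093 and 1647 CPM in axonal +/+ libraries, without overlap (1.19 ± 0.43, adjusted p = 0.0267). Its adjusted p passed 0.05 when 1 of 4 libraries was left out, at 0.0642 without +/+ axonal library 1, 0.0548 without +/+ axonal library 4, and 0.0531 and 0.0583 without +/+ somatodendritic libraries 2 and 4. Ctsb held 731, 658, 733 and 635 CPM against 1108, 689, 463 and 759 CPM, with groups that overlapped and a log2 fold change of 0.13 ± 0.41 (adjusted p = 0.801). Ctsf, the only enzyme with a negative value, was at -0.23 ± 0.20 (adjusted p = 0.340). Ctsk and Ctss, known from osteoclasts and from antigen-presenting cells, had values of 1.84 ± 1.05 and 1.92 ± 1.497 that were not called, and Ctss ranged from 1.59 to 51.3 CPM over the +/+ axonal libraries. Ctsw, known from cytotoxic lymphocytes, was at 0.95 ± 0.62 and not called either.

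Hexa, a chain of beta-hexosaminidase, which removes terminal sugars from gangliosides, was at 57.6 to 70.5 CPM in somatodendritic and 79.0 to 152 CPM in axonal +/+ libraries (0.91 ± 0.36, adjusted p = 0.0429), a call lost in 7 of 16 fits that left out 1 library, namely any +/+ somatodendritic library, +/+ axonal library 1 or 4, or Hnrnpr-/- somatodendritic library 3 (adjusted p from 0.0532 to 0.110). Same-numbered axonal and somatodendritic libraries deviated together, and with the pair of libraries as a block 9 enzymes were called higher in +/+ and 8 in Hnrnpr-/- motoneurons, against 28% and 26.5% of all genes in that fit. Among them in +/+ was Ctsc, which activates other proteases (1.00 ± 0.33, adjusted p = 0.0278, against 0.0845 without the block). The kit does not record the strand of a read, whereas the authors counted reads with a setting for reverse-stranded libraries, so each count holds the reads of 1 orientation, and reads of overlapping genes on opposite strands cannot be told apart. Among the members named, this concerns for example Npc1 with Rmc1 (means of 831 and 1314 counts), Atp6v1c2 with Pdia6 (25.03 and 12238), Ctsw with Fibp (13.9 and 1041), Ctsa with Pltp (5237 and 2405), Ctsb with Fdft1 (22672 and 9959), Ctsz with Nelfcd (3029 and 3239) and Atp6v1d with Eif2s1 (3097 and 3413).

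Among the other lysosomal proteins, the classical membrane proteins and a cholesterol carrier were higher in axons. Lamp2, which like Lamp1 lines the lysosomal membrane and serves in autophagy (chrX:37488524-37545337), held 91.5, 87.8, 102 and 74.3 CPM in somatodendritic and 229, 404, 162 and 328 CPM in axonal +/+ libraries (1.66 ± 0.28, adjusted p = 0.000243). Npc2, the soluble cholesterol-binding protein, held 78.2, 63.2, 74.3 and 63.5 CPM against 212, 150, 211 and 228 CPM (1.52 ± 0.22, adjusted p = 8.59e-05). Lamp1 held 407, 464, 515 and 401 CPM against 1003, 718, 953 and 1234 CPM (1.13 ± 0.21, adjusted p = 0.000485). In these genes every axonal library was above every somatodendritic one. Npc1, the membrane protein that takes cholesterol from Npc2, was at 26.7 to 34.5 and 19.3 to 35.9 CPM and was not called (-0.12 ± 0.20, adjusted p = 0.619). Lamp5, a relative of LAMPs restricted to some neurons, held 188, 182, 170 and 225 CPM in somatodendritic and 46.7, 55.8, 7.73 and 36.1 CPM in axonal libraries (-2.38 ± 0.73, adjusted p = 0.0119). Psap held 1231, 1231, 1169 and 1145 CPM against 853, 707, 665 and 660 CPM and was called lower at -0.73 ± 0.12 (adjusted p = 0.000272).

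The same comparison in Hnrnpr-/- motoneurons gave 21 calls, where 27.5% of all genes were called higher, 26.8% lower and 54.2% in either direction. The compared libraries are separate from the +/+ ones, although the fit shares its estimate of the spread. Of the V-ATPase members 3 were higher and 7 lower (median -0.28), of the enzymes 6 were higher and 0 lower (median 1.18), and of the others 3 were higher and 2 lower (median 0.48), beside a median of -0.0028 over all genes. The groups did not overlap for 4 of the enzymes, all higher in axons, and for 3 V-ATPase members higher and 7 lower, against 24.1% of all genes higher and 27.3% lower. All 21 were also called in +/+ motoneurons with the same sign, where 57.5% of all genes were called in either direction. The share of all genes called in both genotypes was not counted. The 21 moved that way in 4 of 4 pairs of the libraries that gave the calls, which is not separate support. Atp6v0e held 8.69, 17.6, 21.03 and 18.9 CPM in Hnrnpr-/- somatodendritic and 101, 96.7, 189 and 170 CPM in axonal libraries (3.07 ± 0.35, adjusted p = 3.53e-05), and Atp6v0a1 held 865, 615, 661 and 562 against 366, 216, 113 and 136 CPM (-1.70 ± 0.33, adjusted p = 0.000744). As in +/+ motoneurons, the groups lay apart in both genes. The share of Atp6v0e was 6.50 ± 2.13% and 47.8 ± 17.1% of subunit e, that of Atp6v0a1 was 86.1 ± 4.00% and 53.2 ± 14.5% of subunit a, and that of Atp6v1g1 was 50.3 ± 3.79% and 82.6 ± 12.7% of subunit G in these groups. Over Hnrnpr-/- axonal libraries 1 to 4, motoneuron marker sums were 126, 44.2, 6.30 and 18.04 CPM. Atp6v0a1 shares were 71.9, 57.2, 40.3 and 43.4%, and Atp6v1g1 shares 69.8, 73.7, 94.7 and 92.1%. In +/+ axons, library 3, lowest in these markers (13.5 CPM), was lowest in Atp6v0a1 (41.9%) and highest in Atp6v1g1 share (93.6%). Library 4, highest in markers (48.5 CPM), held 59.3% Atp6v0a1 against 65.3% in library 2. The part of motoneuron RNA in the shares was not tested.

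The 3 members called in +/+ but not in Hnrnpr-/- motoneurons lay close to the threshold. Hexa had an adjusted p of 0.0525, Atp6v1c1 of 0.0503 and Atp6v1g2 of 0.05003. With the pair of libraries as a block all 3 were called, at 0.80 ± 0.19 (adjusted p = 0.00635), -0.63 ± 0.21 (adjusted p = 0.0270) and -1.83 ± 0.52 (adjusted p = 0.0139). The block also moved the median of the V-ATPase members to -0.57. The enzymes in Hnrnpr-/- axons depended on the axonal library numbered 4. Without it, but with its somatodendritic partner kept, their median log2 fold change was 0.38 in place of 1.18. In that fit Ctsd was at 0.41 (adjusted p = 0.313) in place of 1.09 ± 0.43 (adjusted p = 0.0407), and Ctsh had an adjusted p of 0.0552 in place of 0.0137. Without both libraries of that number, Ctsd (adjusted p = 0.0384) and Ctsh (adjusted p = 0.0345) were still called. The call of Ctsd was lost too without Hnrnpr-/- somatodendritic library 1, 2 or 3 (adjusted p from 0.0841 to 0.102). Atp6v0d1 (-0.54 ± 0.18), Atp6v0e2 (-0.62 ± 0.21), Atp6ap2 (-0.74 ± 0.26) and Lamp5 (-2.15 ± 0.72) were called, but lost the call without single libraries, with adjusted p up to 0.0996 for Atp6v0d1 and 0.0829 for Atp6v0e2 and 0.0953 for Atp6ap2, all without axonal library 3, and of 0.0522 for Lamp5 without axonal library 4. All 4 also lost it without both libraries numbered 4 (adjusted p from 0.0651 to 0.0849). The count of V-ATPase members called lower was 11 without axonal library 1, and 4 without axonal library 3 or without somatodendritic library 2. The share of all genes called lower moved in the same directions, from 26.8% to 29.1%, 21.3% and 22.7% in these fits. Of the Hnrnpr-/- axonal libraries, library 1 held the highest and library 3 the lowest summed level of motoneuron markers, at 126, 44.2, 6.30 and 18.04 CPM for libraries 1 to 4.

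To compare the pump with the enzymes on 1 scale, the TPM of each class were summed per library. The V-ATPase sum was 7240 to 8414 TPM in +/+ somatodendritic and 4416 to 5765 TPM in +/+ axonal libraries. Over the Hnrnpr-/- axonal libraries it was 7024, 5236, 4035 and 4912 TPM, so that library 1 was highest and library 3 lowest, as for the motoneuron markers. Among +/+ axonal libraries, library 3 was lowest in both, with 13.5 CPM of these markers and 4416 TPM, but library 4 was highest in markers and library 1 in the V-ATPase sum. In cell bodies the orders differed as well: +/+ library 4 had the lowest marker sum of its group, 139 CPM, and the highest V-ATPase sum, 8414 TPM, and Hnrnpr-/- library 1, with the highest marker sum, 260 CPM, held 7227 TPM against 7020 to 7688 TPM in the other 3. The part of motoneuron RNA in these sums was not tested. The enzyme sum was 1600 to 2008 TPM in +/+ somatodendritic and 1965 to 4235 TPM in +/+ axonal libraries. The ratio of the sums was 3.61, 4.56, 3.79 and 5.26 in the +/+ somatodendritic and 1.36, 2.26, 1.82 and 1.29 in the +/+ axonal libraries, which did not overlap. In Hnrnpr-/- motoneurons it was 4.69, 4.08, 3.19 and 1.83 in somatodendritic and 2.34, 2.25, 1.73 and 0.601 in axonal libraries. These groups overlapped, because the somatodendritic library numbered 4 lay below 2 of the axonal libraries. In 4 of 4 same-numbered pairs of each genotype, the V-ATPase sum was lower, the enzyme sum higher and the ratio lower in the axonal library.

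**Figure D3:**
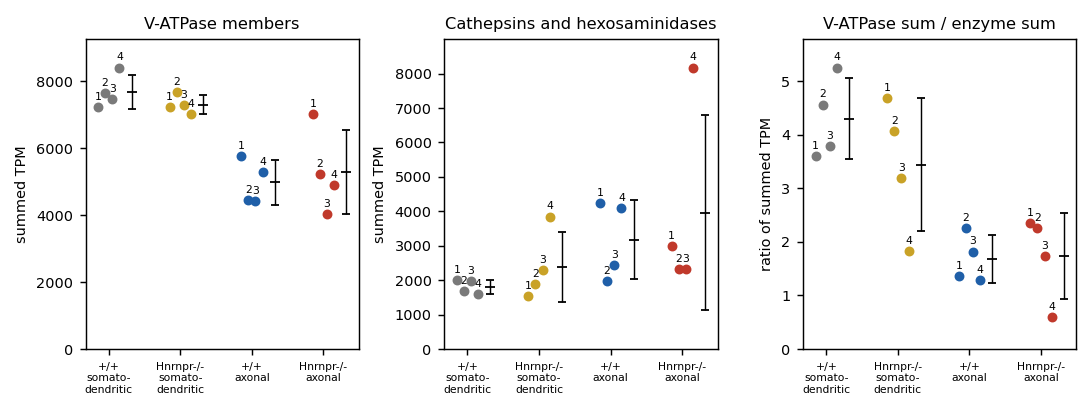
Summed TPM of the V-ATPase members (left) and of the cathepsins and hexosaminidase chains (middle), and their ratio (right), per library (points, numbered by replicate) with the mean and SD of the 4 libraries of a group. The ratio lies between 3.61 and 5.26 in +/+ somatodendritic and between 1.29 and 2.26 in +/+ axonal libraries, and Hnrnpr-/- axonal library 4 holds 8176 TPM of enzyme RNA.

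Microglial markers moved with the enzymes over some of the libraries. The Hnrnpr-/- axonal library numbered 4, with 699 CPM of these markers, held an enzyme sum of 8176 TPM against 2325 to 2995 TPM in the other 3, and its somatodendritic partner, with 207 CPM, held 3847 TPM against 1542 to 2287 TPM. In +/+ axons the library with the highest marker sum, 219 CPM, held 4235 TPM of enzymes, but library 4, with 66.6 CPM, held 4096 TPM. Hnrnpr-/- axonal library 1 and +/+ axonal library 3, with marker sums of 20.5 and 20.0 CPM, held 2995 and 2427 TPM of enzymes, while +/+ axonal library 2, with 88.8 CPM of markers, held 1965 TPM. Of the 14 markers, 1 (Tmem119) was called higher in axons in each genotype and 0 were called lower. Of all genes, 30.1% were called higher in +/+ axons and 27.5% in Hnrnpr-/- axons. With the log2 marker sum as a covariate, an alternative added after seeing the data, the median of the enzymes in +/+ motoneurons was 0.96 in place of 1.28. The fibroblast or meningeal markers moved with the enzymes over some libraries as well. The +/+ axonal library 4 held 2747 CPM of them against 259 to 1405 CPM in the other 3, and Hnrnpr-/- axonal library 4 held 2685 CPM against 529 to 1179 CPM. In Hnrnpr-/- somatodendritic libraries 1 to 4 these markers were at 192, 296, 1389 and 1497 CPM, beside enzyme sums of 1542, 1887, 2287 and 3847 TPM. In +/+ axons, however, library 1 held fewer of them than library 4, 1405 CPM, beside a higher enzyme sum, and in +/+ cell bodies library 4, with 516 CPM, held 1600 TPM of enzymes and library 2, with 151 CPM, 1674 TPM. Hnrnpr-/- somatodendritic library 4 was also the highest of its group in astrocyte or radial glial markers (2773 CPM) and in Schwann or oligodendroglial markers (1229 CPM). In axons, +/+ library 2, with the highest astrocyte or radial glial sum of its group (5827 CPM), held the lowest enzyme sum of its group. Hnrnpr-/- axonal libraries 2 and 4, with Schwann or oligodendroglial sums of 1827 and 1815 CPM, held 2325 and 8176 TPM of enzymes. The part of fibroblasts and of other glia in these values was not tested.

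**Figure D4:**
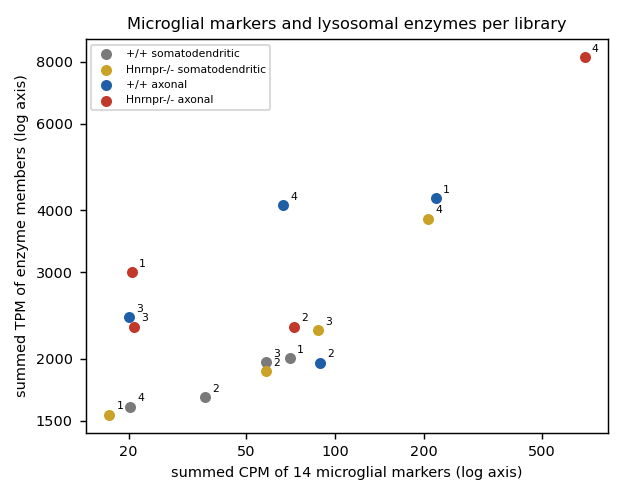
Summed CPM of 14 microglial markers (x axis, logarithmic) against the summed TPM of the enzyme members (y axis, logarithmic) in the 16 libraries, numbered by replicate. Hnrnpr-/- axonal library 4 is highest on both axes, with 699 CPM and 8176 TPM, while axonal libraries with about 20 CPM of markers hold 2326 to 2995 TPM.

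To ask whether loss of hnRNP R alters RNA of the pump or of the enzymes, Hnrnpr-/- and +/+ libraries were compared within each compartment. In the somatodendritic compartment 0 of the 41 members were called and 0 had an unadjusted p under 0.05 in edgeR, against 0.00501% and 0.601% of all genes. In axons 0 were called and 0 had an unadjusted p under 0.05, against 0.01% and 3.88% of all genes. The groups did not overlap for 0 of the 41 members in either compartment, against 1.58% of all genes in cell bodies and 0.606% in axons. DESeq2 gave the same counts of 0 for the members in both compartments. For the V-ATPase members the median standard error of the log2 fold change was 0.22 in each compartment, and for the enzymes it was 0.44, and differences of a few standard errors or less could not have been called. The median log2 fold change of the V-ATPase members was -0.06 in the somatodendritic compartment and 0.09 in axons. That of the enzymes was 0.42, with 13 of 14 values positive, and 0.27, with 12 of 14 positive. Without the Hnrnpr-/- library numbered 4 of the compartment, the enzyme median was 0.12, with 11 of 14 positive, in cell bodies and -0.37, with 1 of 14 positive, in axons.

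Members with the smallest unadjusted p of their class, all above 0.05, are described for each compartment. In cell bodies these included Ctsz, at 12.9, 23.8, 36.1 and 74.3 CPM in Hnrnpr-/- against 25.5, 16.1, 28.7 and 13.7 CPM in +/+ libraries (0.81 ± 0.56), and Lamp1 (0.27 ± 0.21). In each the groups overlapped, and without Hnrnpr-/- somatodendritic library 4, which held 207 CPM of microglial markers, Ctsz was at 0.21 and Lamp1 at 0.16. Ctsz was at 0.43 with the microglial marker sum as a covariate and at 0.51 with the replicate number as a block. Lamp1 was at 0.41 without Hnrnpr-/- somatodendritic library 1. In axons they included Ctso, at 83.4, 61.3, 36.0 and 55.2 CPM in Hnrnpr-/- against 61.4, 207, 42.5 and 85.4 CPM in +/+ libraries (-0.75 ± 0.40), and Lamp2 (-0.40 ± 0.27). These groups overlapped too, and without +/+ axonal library 2, which held the 207 CPM of Ctso, Ctso was at -0.10 and Lamp2 at -0.18. Lamp2 was at -0.27 without Hnrnpr-/- axonal library 2. The difference between the genotypes in the axonal against somatodendritic change was called for 0 of 41 members, as for 0% of all genes. Ctso, at -1.24 ± 0.57, alone had an unadjusted p under 0.05 in edgeR and in DESeq2, where 1.33% of all genes had one, and Lamp2 (-0.66 ± 0.38) and Atp6v0d1 (0.33 ± 0.26) followed. Without +/+ axonal library 2 the values of Ctso and Lamp2 were -0.58 and -0.43, and without Hnrnpr-/- axonal library 1 that of Atp6v0d1 was 0.17.

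**Figure D5:**
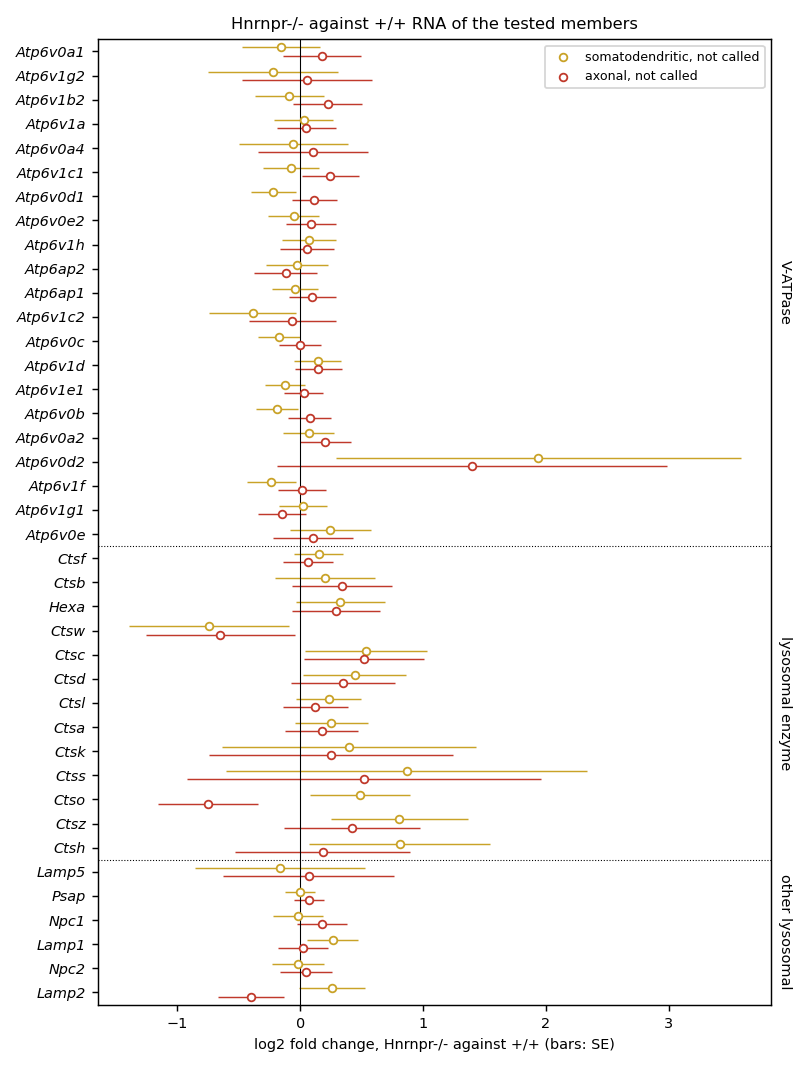
Log2 fold change of Hnrnpr-/- against +/+ libraries for 40 of the members tested, with the standard error as bars, in the somatodendritic (yellow) and axonal compartments (red), 4 libraries per group. No point is filled, since 0 of 41 members were called in either compartment, and the widest bars belong to Atp6v0d2, Ctss and Ctsk.

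Genes that build, sort for or control the lysosome were counted from lists of their own, beside 30.1% of all genes called higher and 27.4% lower in +/+ axons and 27.5% and 26.8% in Hnrnpr-/- axons. Of 16 genes for V-ATPase assembly and regulation, 0 were called higher and 7 lower in +/+ axons (median -0.52). The most negative was Wdr7, a partner of Dmxl2 in the rabconnectin-3 complex that assembles V1 on V0, at -2.87 (adjusted p = 0.000121). In Hnrnpr-/- motoneurons 0 were higher and 9 lower. Of 46 other lysosomal hydrolases and their activators, 20 were called higher and 5 lower (median 0.56), from Cpq, a carboxypeptidase, at 2.85 to Ids, which degrades heparan and dermatan sulfate, at -1.61. In Hnrnpr-/- motoneurons 21 were higher and 3 lower. Of 28 other lysosomal membrane proteins 10 were higher and 4 lower (9 and 4 in Hnrnpr-/-). Litaf, a protein of late endosomes, had the highest value at 3.71 and Abca2, a lipid transporter, the lowest at -2.83.

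Among 15 genes for the sorting of enzymes to lysosomes 5 were higher and 5 lower in +/+ axons (4 and 5 in Hnrnpr-/-). Grn, the progranulin gene, was at 1.49, and Gnptab, which makes the mannose 6-phosphate tag, at -2.43. The 3 cystatins tested of 4, which inhibit cysteine cathepsins, were all called higher in both genotypes, with Cstb at 2.55 in +/+ motoneurons (adjusted p = 8.82e-05). Of 12 genes of the TFEB family and of the Ragulator and Rag complexes, which sense nutrients on the lysosome, 7 were higher and 1 lower in each genotype. Tfeb had the highest value, 1.97, and Rraga, a Rag GTPase, the lowest, -0.36, in +/+ motoneurons. Of the pump subunits outside the symbol rule, Tcirg1 and Rnasek, 1 was called higher in +/+ and 2 in Hnrnpr-/- motoneurons. In the genotype comparisons 0 genes of these lists were called in either compartment.

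The other 12 members did not pass the filter on low counts and had at most 12 counts in any library. Ctsj, Ctsm, Ctsq and Ctsr, of a cathepsin cluster known from rodent placenta, had no count in any of the 16 libraries, for which 3 counts per library is the upper limit from counting error. Atp6v1b1 and Atp6v1g3, pump isoforms known from kidney, had 13 and 1 counts in all, Atp6v1e2, known from testis, had 6, Atp6ap1l 28 and Atp6v1fnb 23. Lamp3, known from mature dendritic cells, had 21 counts, Ctse 2 and Ctsg, a granule protease of neutrophils, 1.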

How the data were processed

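RNA-seq libraries of 4 groups were analysed, 4 per group, as grouped by the labels. The authors trimmed reads with Cutadapt, aligned them to GRCm39 with STAR 2.7.2b and assigned them to RefSeq exons with featureCounts 1.6.4, sharing reads of several places or genes in fractions and using the reverse-stranded setting, although the kit keeps no strand. The deposited values are thus expected counts per gene, rounded here to whole numbers. Axonal libraries had more PCR cycles than somatodendritic ones, which cannot be told apart from the compartment. The study describes the libraries of a group as biological replicates. The floor of 3 counts covers counting error only, whereas SD and SE also hold the differences between libraries.

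Genes were filtered with filterByExpr, scaled by TMM and tested with edgeR 4.0.16 (quasi-likelihood F-test, two-sided) over all 16 libraries, with Benjamini-Hochberg adjustment over 19964 genes. The standard error (SE) is the log2 fold change divided by the root of F. TPM, used for levels between genes, were computed from the counts and exon lengths. Same-numbered somatodendritic and axonal libraries deviated together (correlation 0.105 to 0.241 in +/+ and 0.175 to 0.508 in Hnrnpr-/-, all over 0.1), so a fit with the pair as a block within each genotype was run as an alternative. Further alternatives were other scalings and filters, DESeq2 1.42.0, single groups and leaving out each library. Near-identical transcripts were sought with BLAST+ 2.17.0. Named with values were, per role, the called members with the 3 largest and 3 most negative changes between +/+ compartments, the 3 with the smallest p in each genotype comparison, all V-ATPase isoforms, the 5 highest per compartment and the extreme called gene of each list. One member that the rule would name is not reported here and enters only counts, medians and sums. Members named outside this rule were chosen after their values were seen. Members, lists and markers were chosen with earlier results of these data known.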

Additional observations from a re-analysis of the deposited data

Results flagged for a closer look

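In each group of 4 libraries, a value was looked at again when its gap to the nearest other value exceeded Dixon's critical value, as a share of the range of the group. Of 176 such groups 12 were picked out, where chance gives about 1 in 20. In Hnrnpr-/- axons, library 4 was highest for Ctsk at 16.8 CPM (0.523 to 2.46 CPM in the other 3), Ctss at 105 CPM (0.0600 to 9.81 CPM), Ctsc at 86.2 CPM (14.3 to 23.1 CPM) and Hexa at 278 CPM (94.9 to 106 CPM). The same library was highest for Atp6v0d2 at 9.05 CPM (0 to 0.0621 CPM) and for the summed level of the enzymes at 8176 TPM (2325 to 2995 TPM). Its microglial marker sum was the highest of the 16 libraries, and the part of this in the values was not tested.

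The other values picked out belong to V-ATPase members. Hnrnpr-/- axonal library 1 was highest for Atp6v0b at 355 CPM (210.5 to 224 CPM) and for Atp6v1e1 at 299.7 CPM (185 to 203 CPM). Hnrnpr-/- somatodendritic library 2 was highest for Atp6v0e2 at 609 CPM (522 to 533 CPM) and for Atp6v1g2 at 224 CPM (161 to 169 CPM). In +/+ axons, library 3 was lowest for Atp6v1a at 170 CPM (304 to 319 CPM) and for Atp6v1g2 at 24.4 CPM (80.0 to 90.6 CPM).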

How the results depend on the processing

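Of the members called between the compartments, 20 of 24 in +/+ and 15 of 21 in Hnrnpr-/- motoneurons were called in all 28 alternatives. The exceptions were Ctsd, Hexa, Atp6v1g2 and Atp6ap2 in +/+, and Lamp5, Atp6v0e2, Ctsd, Atp6v0d1, Ctsh and Atp6ap2 in Hnrnpr-/- motoneurons. DESeq2 called 24 and 24 members with default settings and 23 and 22 with shrinkage. In Hnrnpr-/- motoneurons, V-ATPase members called lower numbered 4 in place of 7 with library totals and with only the compared groups fitted, where fewer libraries inform the spread, and 5 without both Hnrnpr-/- libraries numbered 4. Other lysosomal members called lower numbered 1 in place of 2 with only the compared groups and without both of those libraries. Library totals moved the median of all genes from 0.07 to 0.22 in +/+ and from -0.0028 to 0.12 in Hnrnpr-/- motoneurons. The median of the V-ATPase members in Hnrnpr-/- motoneurons was -0.56 with a replicate block, -0.57 with the block within each genotype and -0.54 with the microglial covariate, in place of -0.28; that covariate gave 0.96 in place of 1.28 for the enzymes in +/+. Apart from the calls given beside their results, the block within each genotype changed no other call of the members named. Replicate numbers shared between the genotypes were not taken as pairs, since deviations correlated from -0.0458 to 0.359 (somatodendritic) and from 0.00946 to 0.677 (axonal).

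Without both Hnrnpr-/- libraries numbered 4, the enzyme median of Hnrnpr-/- against +/+ axons was -0.37 in place of 0.27, as without the axonal one alone. With 1 library left out at a time, Hnrnpr-/- V-ATPase members called lower ranged from 4 to 11, enzymes called lower from 0 to 1, other members called lower from 1 to 2, and the enzyme median from 0.38 to 1.40. The +/+ V-ATPase median ranged from -0.75 (without axonal library 2) to -0.34. Between genotypes, the median of other members ranged from -0.064 (without Hnrnpr-/- library 4) to 0.063 (without +/+ library 1) in cell bodies, that of the enzymes from -0.37 to 0.48 in axons, and that of the enzymes in the difference of changes from -0.77 to 0.25. From CPM without length, the ratio of the sums was 3.52 in +/+ somatodendritic and 1.23 in +/+ axonal libraries, the share of Atp6v0e was 2.43% and 27.6% in +/+ and 2.94% and 29.8% in Hnrnpr-/- libraries, and that of Atp6v1g1 was 33.3% and 74.7% in +/+ and 37.0% in Hnrnpr-/- somatodendritic libraries. The CLEAR palindrome was in 0 members. The cause was not tested for any of these.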
